A study of Mus musculus with 8 samples.

Results

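The regions described here are 4344 of the 19129 RXR ChIP-seq peaks (22.7%) called in 1 newborn wild-type mouse heart, WT replicate 3. They were chosen by 2 measurements: no peak of the other wild-type heart, WT replicate 4, overlapped them by 1 bp or more, and their summit lay within 1 kb of either end of a protein-coding gene in RefSeq. A further 1628 peaks of WT replicate 3 met the distance rule but had an overlapping peak in WT replicate 4 (called shared peaks below). Another 10408 peaks were found in WT replicate 3 and not in WT replicate 4 but lay off gene ends. The study measured where the retinoid X receptor (RXR) sits on DNA in total hearts of mice at postnatal day 0. It used 2 wild-type (WT) hearts and 2 edKO hearts, which lack RXR alpha and beta in cardiomyocytes, each with an immunoprecipitate and an input library and each with replicate number 3 or 4. The deletion was limited to cardiomyocytes, while the labelled tissue is the total heart, so other cell types of the edKO hearts were not targeted. Peak lists hold no expression values, so neither the deletion nor the cell types of the tissue could be checked on RNA. The hearts differed widely in the number of peaks called, with 19129 and 4697 in the WT hearts numbered 3 and 4, and 8 and 127 in the edKO hearts with the same numbers. The selected peaks therefore come from 1 library, no replicate check of them exists, and no p-value is given.

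RXR is a nuclear receptor that pairs with other receptors of the family, such as the retinoic acid, thyroid hormone, liver X and peroxisome proliferator-activated receptors. The pairs bind direct repeats of the hexamer AGGTCA, and the spacing between the repeats differs between partners. In the heart the receptors are known for control of fatty acid use. Many promoters of housekeeping genes lie in CpG islands and carry binding words of general factors such as ETS proteins, YY1 and SP/KLF proteins.

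Sequence around the summit is shown for 8 of the peaks that had their summit in a RefSeq promoter window. The first 3 carry a match to a nuclear receptor word, the next 2 carry words of ETS and YY1 factors, and the last 3 carry none of the words searched. Dpf2 had the highest fold enrichment of all, and Ech1 and Tpm1 led their gene groups; the others were picked for their matches among the peaks that lead a ranking, after the matches had been seen. Letters are the RefSeq reference (GRCm38.p6), 5′ to 3′ on the strand of the named gene, 50 bp to each side of the summit, which is base 51. Capitals mark matches on either strand to the hexamer, to a direct repeat with at most 2 mismatches over its 12 positions, or to the other words spelled out further on.
Fam114a1 (chr5:64969911-64970011, plus strand): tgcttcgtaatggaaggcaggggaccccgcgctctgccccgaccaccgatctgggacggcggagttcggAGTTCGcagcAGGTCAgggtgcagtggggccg
Pde8a (chr7:81213122-81213222, plus strand): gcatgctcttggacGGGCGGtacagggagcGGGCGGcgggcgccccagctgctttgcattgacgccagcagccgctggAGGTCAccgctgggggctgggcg
Atg2a (chr19:6241469-6241569, plus strand): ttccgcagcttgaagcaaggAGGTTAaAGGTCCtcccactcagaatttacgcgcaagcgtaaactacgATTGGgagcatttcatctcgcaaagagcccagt
Cdk7 (chr13:100730916-100731016, minus strand): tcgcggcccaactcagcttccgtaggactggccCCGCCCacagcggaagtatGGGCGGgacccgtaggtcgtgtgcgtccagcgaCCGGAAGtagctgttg
Zfp207 (chr11:80383122-80383222, plus strand): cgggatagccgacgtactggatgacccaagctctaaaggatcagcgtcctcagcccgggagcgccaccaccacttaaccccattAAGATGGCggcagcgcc
Dpf2 (chr19:5912849-5912949, minus strand): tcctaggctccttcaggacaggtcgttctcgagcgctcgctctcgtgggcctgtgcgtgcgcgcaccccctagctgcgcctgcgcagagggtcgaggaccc
Ech1 (chr7:28825095-28825195, plus strand): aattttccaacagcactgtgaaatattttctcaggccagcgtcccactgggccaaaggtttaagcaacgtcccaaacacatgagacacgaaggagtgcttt
Tpm1 (chr9:67049363-67049463, minus strand): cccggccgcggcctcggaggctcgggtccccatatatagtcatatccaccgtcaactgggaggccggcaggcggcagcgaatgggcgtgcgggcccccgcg
The capitals in Fam114a1 are a direct repeat with 4 bases between its hexamers (DR4), and the second hexamer is a perfect AGGTCA. Pde8a carries 1 AGGTCA and a pair of GC boxes. Atg2a carries a direct repeat with 1 base between its hexamers (DR1) and a CCAAT box. Cdk7 carries an ETS core and a pair of GC boxes, and Zfp207 carries a YY1 core. A match is a description of the letters and does not show that a factor was bound there.

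The enrichment of the selected peaks was low within their list. Fold enrichment is the authors' ratio of fragments at the summit to the local background of the same heart, and it is used here only within the list of WT replicate 3. The selected peaks ranged from 2.38 to 21.0 with a median of 4.88 and quartiles of 4.27 and 6.03. Shared peaks at gene ends had a median of 8.75 and a highest value of 74.6, and WT replicate 3 only peaks off gene ends had a median of 5.17. Only 343 of the selected peaks (7.90%) reached a fold enrichment of 8, 114 reached 10 and 13 reached 15. The 2 classes separated by the rule also differed in the other values of the peak caller. The median −log10 p was 9.71 against 24.7 in shared peaks, and 46.3% of the selected peaks reached 10, against 90.8%. Median width was 306.5 bp against 536 bp, and 291 of the selected peaks (6.70%) were at the smallest width in the list, 200 bp, against 9 of the shared peaks. The pair of fold enrichment and −log10 p was met by a whole number of fragments in 100% of these peaks. The selected peaks held a median of 18 fragments at the summit (quartiles 16 and 23, range 11 to 86), against 35 in shared peaks. The median local background was close in both, at 2.59 and 2.77 fragments, so the classes differed in the fragments at the summit and much less in the background beneath them.

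**Figure D1:**
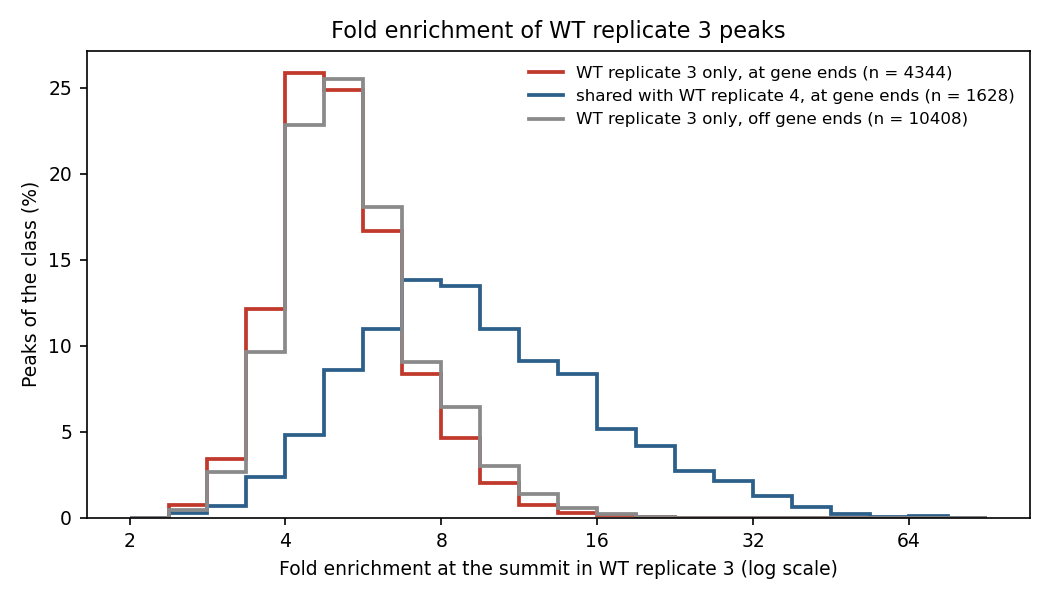
Share of peaks in each class (y axis, percent) by fold enrichment in WT replicate 3 (x axis, log scale), for selected peaks (red), shared peaks at gene ends (blue) and WT replicate 3 only peaks off gene ends (grey). The red and grey distributions lie close together around medians of 4.88 and 5.17, and the blue one is shifted to a median of 8.75.

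The share of gene-end peaks of WT replicate 3 that also had a WT replicate 4 peak was higher at higher fold enrichment. Below a fold enrichment of 4 it was 7.20%, with a 95% Clopper-Pearson interval of 5.47 to 9.27. From 8 to below 10 it was 53.1% (48.5 to 57.6), and from 10 to below 15 it was 79.0% (75.1 to 82.6). Of 167 gene-end peaks at 20 or more, 166 were shared, and the single exception was the peak at Dpf2. In the 4 bins between fold enrichments of 5 and 15, gene-end peaks were shared more often than peaks off gene ends, for example 29.2% (26.6 to 31.9) against 17.6% (16.2 to 19.1) between 6 and 8. In the other 4 of the 8 bins the intervals overlapped, for example 7.20% against 5.94% (4.76 to 7.30) below 4 and 92.4% (87.1 to 96.0) against 89.5% (85.9 to 92.5) between 15 and 20. These intervals, like all others given here, cover counting error only, and peaks are not replicates of a heart. The rule left no overlap with WT replicate 4, and the median gap to its nearest peak was 82.9 kb, against 70.5 kb for WT replicate 3 only peaks off gene ends. A WT replicate 4 peak lay within 500 bp of 186 selected peaks (4.28%, against 2.09% off gene ends) and within 1 kb of 256 (5.89%, against 3.84%). The nearest lay at Mt1, a metallothionein gene, where the peak of fold enrichment 4.02 touched a WT replicate 4 peak without overlapping it.

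**Figure D2:**
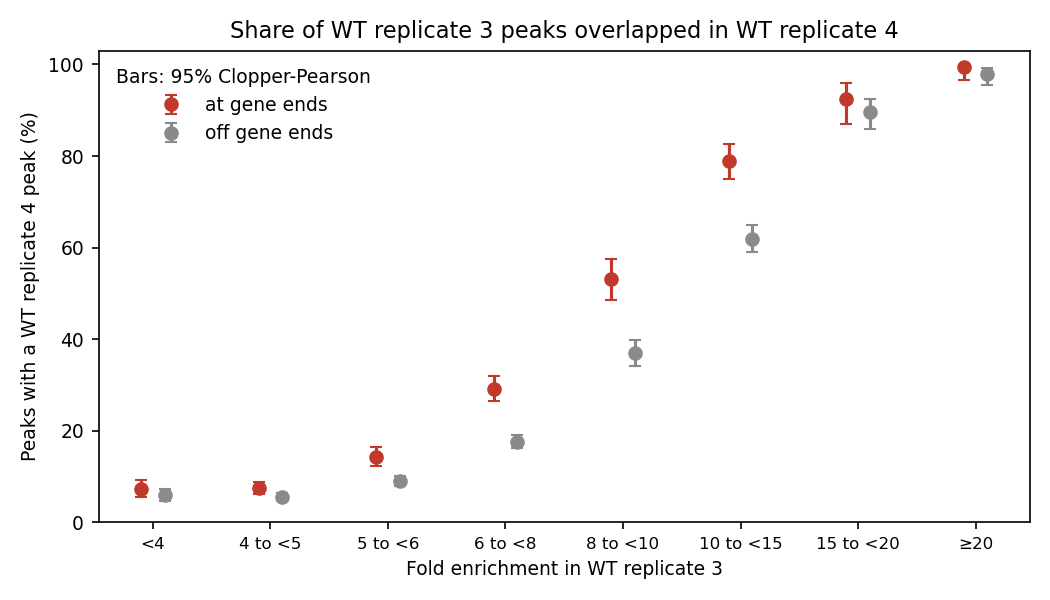
Percent of WT replicate 3 peaks that overlapped a WT replicate 4 peak (y axis) by fold enrichment in WT replicate 3 (x axis), at gene ends (red) and off gene ends (grey), with 95% Clopper-Pearson bars. Both rise from below 10% under a fold enrichment of 5 to above 97% at 20 or more, and the bars do not overlap in the 4 bins between 5 and 15.

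The 10 highest of the selected peaks lay at genes of varied function. Dpf2, a subunit of BAF chromatin remodelling complexes, had a fold enrichment of 21.0 from 86 fragments, with the summit 28 bp before its start. Atf6b, a transcription factor of the endoplasmic reticulum stress response, had 19.8 from 68 fragments at 628 bp from its 3′ end. The promoter between Rbmxl1, an RNA-binding protein gene, and Slc10a7, a solute carrier gene, had 19.7 from 77 fragments. These 3 peaks lay 16.6, 50.5 and 75.4 kb from the nearest WT replicate 4 peak. The promoter between Fam114a1 and Tlr6, a toll-like receptor gene, had 18.9 from 65 fragments. Slc27a1, which encodes a fatty acid transport protein, had 18.1 from 62 fragments, 274 bp before its start. Npas2, a circadian transcription factor, and Vamp4, a vesicle fusion protein, each had 16.9 from 58 fragments. Pick1, a PDZ domain scaffold, Pde8a, a cAMP phosphodiesterase, and 0610030E20Rik followed at 16.8, 16.4 and 16.1. So 9 of the 10 were nearest to a start and 1 to a 3′ end. The middle of the ranking looked different. Trib2, Nacc2, Zbtb26, Rbms1 and Grb14, at ranks 2171 to 2175, had fold enrichments of 4.88 to 4.89 from 16 to 31 fragments. The lowest ranks were Mapk14, a stress-activated kinase gene, at 2.41 and Akt1s1, a regulator of mTOR signalling, at 2.38. At the distance limit, Lgr4 and Rrp15 were just inside with summits at 1000 bp and fold enrichments of 5.17 and 6.03. Podxl2 at 1002 bp and Fgf18 at 1003 bp were just outside, at 5.17 and 6.60.

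The edKO hearts shared almost none of these peaks. A single one, at the Rbmxl1 and Slc10a7 promoter, overlapped a peak of edKO replicate 4, where its fold enrichment was 4.80, and none overlapped the 8 peaks of edKO replicate 3. Over all WT replicate 3 peaks, 0.659% overlapped an edKO replicate 4 peak. The share was 0.0230% (0.000583 to 0.128) for the selected peaks and 3.13% (2.34 to 4.10) for shared peaks at gene ends, where 51 overlapped. At a fold enrichment of 15 or more it was 1 of 13 selected peaks, or 7.69% (0.195 to 36.0), against 50 of 312 shared peaks, or 16.0% (12.1 to 20.6), and these intervals overlap. Of those 50, 48 lay at 20 or more, where there was only 1 selected peak. From 15 to below 20 it was 1 of 12 selected and 2 of 146 shared peaks. Below 10 no gene-end peak of either class overlapped an edKO replicate 4 peak, so the shares of whole classes compare unlike fold enrichments. With 127 peaks in edKO replicate 4 the lists could hold few overlaps, so loss of RXR binding and a lower yield of the edKO libraries cannot be told apart in this count.

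Most summits with a known strand lay nearer to a gene start than to a 3′ end. Which end a peak was near was not part of the rule. Strand was known for 3472 of the selected peaks from the RefSeq promoter table. Of these, 3247 were nearest to a start, 93.5% (92.6 to 94.3), and 225 to a 3′ end. Shared peaks at gene ends gave 95.7% (94.5 to 96.8), and WT replicate 3 only peaks off gene ends, by their nearest gene end at any distance, gave 54.6% (53.5 to 55.7). Around the start the summits spread over both sides, with a median at 37 bp into the gene and a median absolute distance of 166 bp, against 12 bp and 161 bp in shared peaks. Of the peaks near a start, 35.2% had the summit within 100 bp, 63.0% within 250 bp and 83.4% within 500 bp. The same shares in shared peaks were 34.6, 63.8 and 84.9%, and the intervals of the classes overlap at each distance. The 225 peaks at 3′ ends had a median fold enrichment of 4.88, and Atf6b was the highest among them. Some peaks lay near more than 1 gene. A total of 657 (15.1%) lay within 1 kb of an end of 2 or more genes. Starts of genes on both strands lay within 1 kb of the summit at 365 (8.40%), against 11.0% of shared peaks.

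**Figure D3:**
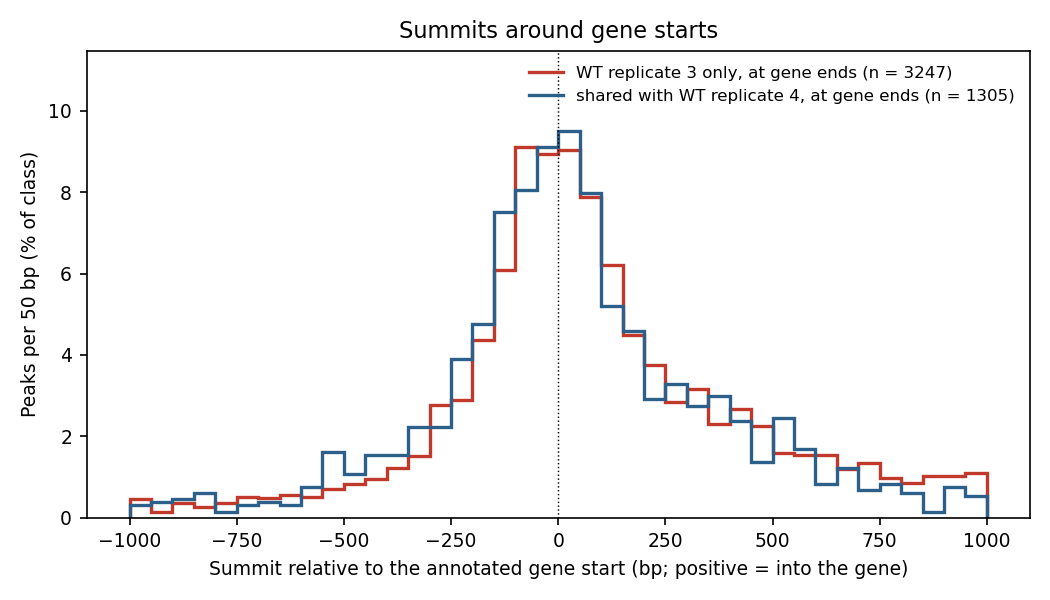
Position of summits relative to the annotated gene start (x axis, bp, positive into the gene) as percent of peaks per 50 bp bin (y axis), for 3247 selected peaks (red) and 1305 shared peaks (blue) nearest to a start. Both curves are highest within about 100 bp of the start and overlie one another over most of the range.

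At the level of genes, 4401 of 21887 protein-coding genes (20.1%) had such a peak within 1 kb of an end, and 1838 (8.4%) had a shared peak. Both kinds were found at 307 genes, which is 6.98% of the first set and 16.7% of the second. One peak was found at 3838 of the 4401 genes, 2 at 515 and 3 or more at 48, and Erf, an ETS-family repressor, had 4. Each share below is to be read against 20.1% for the selected peaks and 8.4% for shared peaks. Of 27 gene lists, 21 had a share of genes above 20.1%, with the interval above it in 15, and 1 list, the olfactory receptors, had its interval below it. Only 3 of 1110 olfactory receptor genes had such a peak. With peaks at a −log10 p of 10 or more alone, 10 of the 15 lists kept their interval above the share of all genes, and Mediator and RNA polymerase II, autophagy, cyclins, the cytosolic ribosome and Zfp genes did not.

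**Figure D4:**
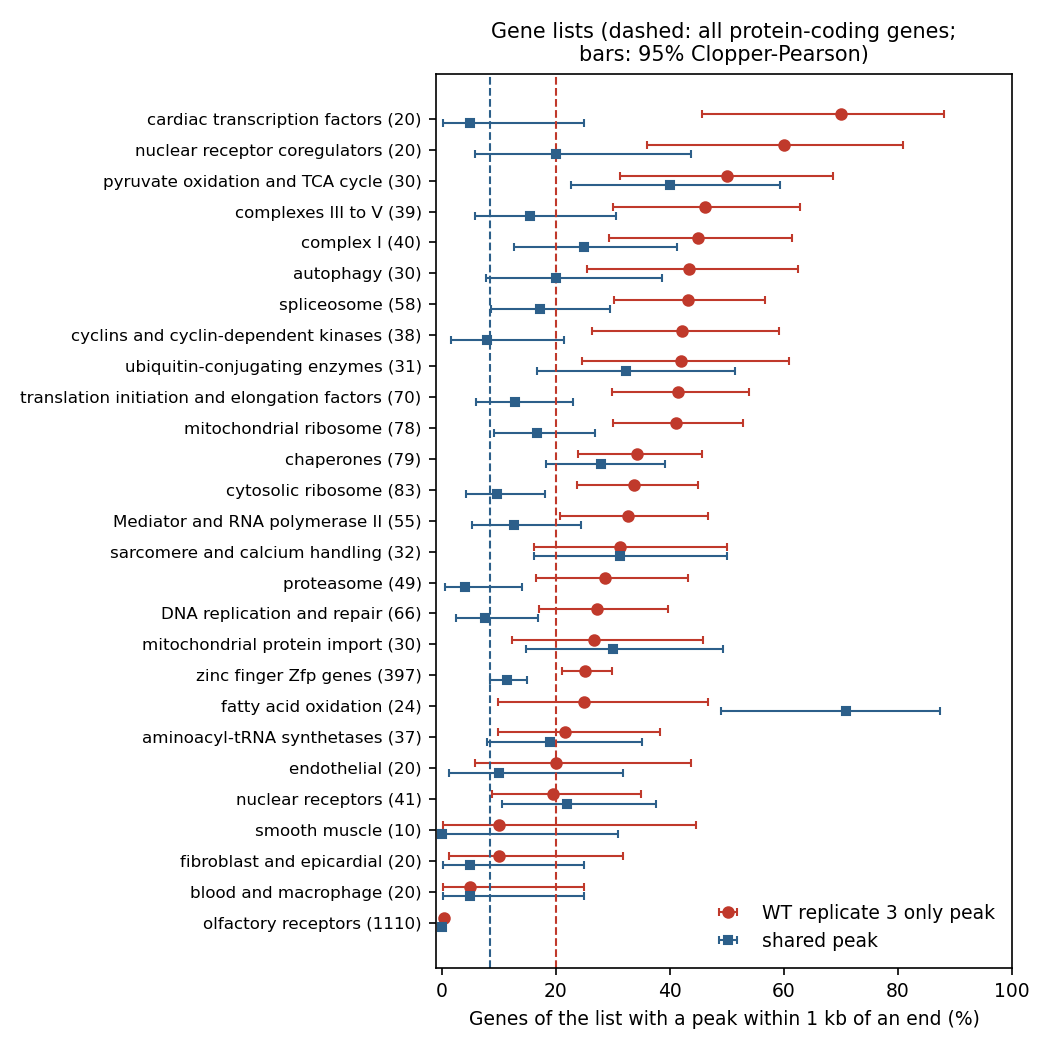
Percent of the genes of each list (number of genes in brackets) with a WT replicate 3 only peak (red circles) or a shared peak (blue squares) within 1 kb of an end, with 95% Clopper-Pearson bars. Dashed lines mark all protein-coding genes, at 20.1 and 8.4%; cardiac transcription factors and nuclear receptor coregulators lie farthest right in red, and fatty acid oxidation lies farthest right in blue.

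Cardiac transcription factors had the largest share. Of 20 such genes, 14 had a selected peak, 70.0% (45.7 to 88.1), and 1, Gata6, also had a shared peak. The peak named for Srf, the serum response factor that drives muscle genes, had a fold enrichment of 10.6 but lay 498 bp from its 3′ end and nearer still to an end of Cul9. Gata6 and Gata4, zinc finger factors of heart formation, had 9.54 and 6.03. Tbx20, Tbx3 and Tbx2, T-box factors of chamber and conduction system development, had 5.57, 5.32 and 4.90. Gata5, Hey2, Meis1, Irx4, Myocd, Mef2d, Mef2a and Tead1 made up the rest, between 3.62 and 5.74. Apart from Srf and Gata6, then, these peaks were near the median of all the selected peaks, and each rests on 13 to 24 fragments.

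Genes that work with nuclear receptors came next. Of 20 coregulator genes, 12 had a selected peak, 60.0% (36.1 to 80.9), and 4 a shared one. Tbl1x, part of the NCoR corepressor complex, had 10.0, Kmt2d, a histone methyltransferase, 7.75 at a 3′ end that lies close to Prkag1, and Nrip1, a corepressor, 6.81. The corepressor gene Ncor1, the deacetylase genes Hdac3 and Sirt1, and the acetyltransferase genes Crebbp and Ep300 were also among the 12, at 3.73 to 5.83. The receptors themselves were near the level of all genes, with 8 of 41, or 19.5% (8.82 to 34.9), against 9 of 41 with a shared peak. The orphan receptor genes Nr2f6 and Esrra led with 10.9 and 10.0, and Esrra also had a shared peak of 12.6. Thra, a thyroid hormone receptor gene, had 5.57. Rxra, which encodes RXR alpha, had a selected peak of 5.17 from 17 fragments, with the summit 106 bp from its start, and Ppara, which encodes a fatty acid sensor, had 5.30 beside a shared peak.

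Lists of mitochondrial energy metabolism were above all genes in the share with a shared peak, and most of them also in the share with a selected peak. Fatty acid oxidation was the list with the largest share of shared peaks, 17 of 24 genes or 70.8% (48.9 to 87.4), and 6 of 24, 25.0% (9.77 to 46.7), had a selected peak, an interval that includes 20.1%. Ech1, a dienoyl-CoA isomerase, led these with 14.9 from 51 fragments, followed by Decr1, a dienoyl-CoA reductase, at 10.6 and Crat, carnitine acetyltransferase, at 9.28. Decr1 and Cpt1b, the muscle carnitine palmitoyltransferase, also had a shared peak, and the selected peak at Decr1 lay 0.125 kb from a WT replicate 4 peak. In the respiratory chain, complex I had a selected peak at 18 of 40 genes, 45.0% (29.3 to 61.5), and a shared one at 10, 25.0% (12.7 to 41.2). Complexes III to V had 18 of 39, 46.2% (30.1 to 62.8), and a shared one at 6, 15.4% (5.86 to 30.5, which includes 8.4%). No gene of either list had both kinds. Over all genes with a selected peak 6.98% had both, so 0 of 18 is near that share. Ndufv2 and Ndufb2 of complex I had 9.76 and 7.46, and the ATP synthase genes Atp5mpl and Atp5b had 8.90 and 8.48. Uqcrc1, a core subunit of complex III, had 7.83. Pyruvate oxidation and the TCA cycle had selected peaks at 15 of 30 genes, 50.0% (31.3 to 68.7), and shared ones at 12, 40.0% (22.7 to 59.4). Suclg1, a succinyl-CoA ligase subunit, had 10.9, and the pyruvate dehydrogenase phosphatase genes Pdp2 and Pdp1 had 9.76 and 7.46. Mitochondrial ribosome genes had selected peaks at 32 of 78, 41.0% (30.0 to 52.7), led by Mrpl1, Mrpl44 and Mrps7 at 10.6, 8.48 and 8.04. Mitochondrial import had 8 of 30, led by Timm44 at 8.48.

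Housekeeping lists outside mitochondria held such peaks at 28.6 to 43.3% of their genes in most cases. Autophagy had 13 of 30, led by Atg2a, a lipid transfer protein of autophagosome growth, at 8.01. Spliceosome genes had 25 of 58, with Lsm4 at 11.2 and Srsf7 at 10.6, the latter in a promoter it shares with Gemin6. Cyclins and cyclin-dependent kinases had 16 of 38 with a selected peak and 3 with a shared one, and Cdk7, the kinase of the TFIIH complex, led with 9.76. Ubiquitin-conjugating enzymes had 13 of 31, and translation factors had 29 of 70, with Eef2 at 9.54 and Eif4a2 at 9.19. Chaperones had 27 of 79, the cytosolic ribosome 28 of 83, and Mediator and RNA polymerase II 18 of 55. The proteasome had 14 of 49, 28.6% (16.6 to 43.3), an interval that includes 20.1%. DNA replication and repair had 18 of 66, or 27.3% (17.0 to 39.6), led by Mcm4, a replicative helicase subunit, at a promoter it shares with Prkdc. The tRNA synthetases were close to all genes, with 8 of 37. Zfp zinc finger genes had 100 of 397, 25.2% (21.0 to 29.8), and Zfp207 at 12.6 from 58 fragments was the highest.

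The lists of heart cell types were all small, and the interval of each includes the 20.1% of all genes. Sarcomere and calcium handling genes had a selected peak at 10 of 32 and a shared peak at 10 of 32, 31.2% (16.1 to 50.0) in each. Tpm1, a tropomyosin, had 10.0, Tnnt2, cardiac troponin T, 8.94 and Jph2, a junctional membrane protein, 7.75. The peak at Jph2 lay 938 bp from its 3′ end, and the gene also had a shared peak of 9.47. Des, Ttn, Myh7, Mybpc3 and Actn2, all of the contractile apparatus, were among the 10, and the peak at Myh7 lay 999 bp from its 3′ end. Endothelial markers had 4 of 20, namely Esam at 6.60, Robo4, Cldn5 and Flt1. Fibroblast and epicardial markers had 2 of 20, with Loxl1 at 10.0 and Postn at 4.24. The blood and macrophage list had 1 of 20, the myeloid factor Spi1 at 8.04, and the smooth muscle list had 1 of 10, Myl9.

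Most of the selected peaks with their summit in a promoter window lay in CpG-rich sequence, a feature that the rule did not use. RefSeq promoter windows of 300 bp, from 250 bp before to 50 bp after the start, were at hand for 17492 of the 21887 genes. The summits of 1576 of the selected peaks (36.3%) fell in 1773 such windows. The sequence at the other selected summits was not read, and windows of their genes can count among those with neither summit. The ratio of observed to expected CpG had a median of 0.84 (0.83 to 0.85) in these windows, against 0.86 (0.84 to 0.87) in windows with a shared summit and 0.49 (0.48 to 0.50) in the 18702 windows with neither. A ratio of 0.6 or more was reached in 87.0% (85.3 to 88.5), against 87.6 and 42.3%. By gene, 32.5% (31.5 to 33.5) of the 8896 genes with a CpG-rich window had a selected peak at an end, against 7.50% (6.96 to 8.08) of the 8596 genes without one. The lists above differ in this respect. Of spliceosome genes with a window 95.8% were CpG-rich, of mitochondrial ribosome genes 92.8%, and of fatty acid oxidation genes 57.9%. Among CpG-rich genes alone, the share was above 32.5% in 13 of the 27 lists, and no interval lay below it. The interval of 2 lists lay above 32.5%. These were the cardiac transcription factors with 7 of 10 genes, 70.0% (34.8 to 93.3), and the coregulators with 8 of 12, 66.7% (34.9 to 90.1). The respiratory complexes had 51.9% (32.0 to 71.3) for complex I and 34.6% (17.2 to 55.7) for complexes III to V.

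The words of general promoter factors were counted next, on both strands, in CpG-rich windows only, since the classes differ in their share of these. There were 1542 such windows with a selected summit, 690 with a shared one and 7905 with neither. The ETS core CCGGAAG was in 25.9% (23.7 to 28.1) with a selected summit, 28.3% (24.9 to 31.8) with a shared one and 17.8% (17.0 to 18.7) with neither, and in 11.6% of all windows. The YY1 core AAGATGGC was in 6.68% (5.48 to 8.04), 6.23% (4.55 to 8.30), 4.50% (4.06 to 4.98) and 3.05%, in the same order. The GC box GGGCGG was in 76.4% (74.2 to 78.5), 81.4% (78.3 to 84.3), 73.1% (72.1 to 74.0) and 46.2%. These 3 words were more frequent with a selected summit than with neither, by much the most for the ETS core, and only narrowly for the YY1 core and GC box. The intervals treat windows as independent, but the 1773 windows with a selected summit came from 1576 peaks, and all 21263 windows from 17492 genes. The narrow differences may therefore lie within counting error. With 1 window per peak, at any CpG content, the ETS core was in 22.1% (20.1 to 24.3), against 23.8% of the 1773 windows. The TATA box TATAAA was less frequent, at 3.83% (2.93 to 4.91) against 6.02% (5.51 to 6.57) with neither and 12.6% of all windows. For the remaining words the intervals of selected and neither overlapped. The NRF1 core GCATGCGC was in 5.84% against 6.43%, the CRE TGACGTCA in 3.89% against 3.68%, the E-box CACGTG in 11.4% against 11.2%, and the CCAAT box CCAAT in 36.3% against 36.6%. Over all windows these 4 words were in 3.52, 2.23, 7.84 and 38.2%.

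Nuclear receptor words were counted in the same windows. In CpG-rich windows the hexamer AGGTCA was in 11.6% (10.1 to 13.3) with a selected summit, 16.2% (13.6 to 19.2) with a shared summit and 8.35% (7.75 to 8.98) with neither, against 14.7% of all windows. DR4 was in 1.69% (1.10 to 2.46), 5.36% (3.80 to 7.32), 1.38% (1.13 to 1.66) and 2.65% in the same order. DR1 was in 2.40% (1.69 to 3.29), 5.07% (3.56 to 6.98), 1.70% (1.42 to 2.00) and 3.32%. In these CpG-rich windows, a split made after the values were seen, the selected peaks had fewer of all 3 words than shared peaks, with intervals that do not overlap. Of these 3 words, over windows of any CpG content, this held for DR4 alone, at 2.03% (1.43 to 2.80) against 5.96% (4.42 to 7.85). The hexamer was then in 13.9% (12.4 to 15.6) against 17.8% (15.2 to 20.6) and DR1 in 2.99% (2.25 to 3.89) against 5.08% (3.65 to 6.85), and both pairs of intervals overlap. DR5, a repeat with 5 bases between its hexamers, was also less frequent than in shared peaks, with intervals apart. It was in 1.30% (0.794 to 2.00) against 3.91% (2.59 to 5.64) of CpG-rich windows. Over windows of any CpG content it was in 1.86% (1.28 to 2.60) against 4.57% (3.22 to 6.27). For repeats with 2 or 3 bases between the hexamers the intervals overlap in both sets of windows. At a fold enrichment of 8 or more the hexamer was in 18.3% (12.8 to 25.0) of selected and 17.6% (14.3 to 21.3) of shared windows. Set against CpG-rich windows with neither summit, CpG-rich windows with a selected summit had more hexamers, while for DR4 and DR1 the intervals overlap. Over windows of any CpG content the hexamer was not more frequent, at 13.9% with a selected summit against 14.7% (14.2 to 15.2) with neither. A window can match the hexamer and a repeat at the same letters, as Fam114a1 does. DR4 went with fold enrichment within the selected peaks, a split made after the values were seen. Over windows of any CpG content, in the 169 at 8 or more it was in 6.51% (3.29 to 11.3), and in the 1604 below 8 in 1.56% (1.01 to 2.29). Shared windows at 8 or more had 7.84% (5.58 to 10.6) and those below 8 had 3.16% (1.53 to 5.74), so on each side of 8 the intervals of the 2 classes overlap. The classes are not alike in fold enrichment above 8. Of all gene-end peaks at 8 or more, 13 of 343 selected and 312 of 951 shared peaks reached 15.

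The position of the matches was read against the summit, with 1 window per peak. In the selected peaks the hexamer had 0.70 matches per kb (0.53 to 0.92, Poisson 95% interval) within 25 bp of the summit and 0.39 (0.30 to 0.50) at 101 to 200 bp. In shared peaks these densities were 1.51 (1.12 to 1.99) and 0.30 (0.18 to 0.46). DR4 had 0.15 matches per kb (0.074 to 0.26) within 25 bp in the selected peaks and 0.92 (0.62 to 1.32) in shared peaks. The density near the summit was thus higher than farther out for the hexamer in both classes, and lower in the selected peaks than in the shared ones for both words. In the selected peaks a rise toward the summit was not particular to the hexamer. The GC box had 6.32 (5.77 to 6.92) within 25 bp and 4.96 (4.61 to 5.32) at 101 to 200 bp. The ETS core had 1.20 (0.964 to 1.47) and 0.808 (0.672 to 0.964), while the NRF1 core did not rise, at 0.19 and 0.26. In shared peaks the GC box did not rise, at 6.10 and 6.76. Any direct repeat with 1 to 5 bases between its hexamers was found within 50 bp of the summit in 69 of 1576 selected peaks, 4.38% (3.42 to 5.51), and in 11.9% (9.59 to 14.6) of shared peaks. It was in 8.61% (4.66 to 14.3) of the 151 selected peaks at a fold enrichment of 8 or more. In shared peaks it was in 12.1% (8.50 to 16.6) from 8 to below 15 and in 20.0% (13.7 to 27.6) at 15 or more. From 5 to below 8 it was in 4.49% (3.05 to 6.35) of selected and 6.67% (3.69 to 10.9) of shared peaks. Below 5 it was in 3.43% (2.26 to 4.99) and 10.6% (4.37 to 20.6), and in both of these bins the intervals overlap. The ETS core within 50 bp was in 9.64% (8.23 to 11.2) of selected and 11.0% (8.80 to 13.6) of shared peaks. Fragment number moves with each of these differences, at a median of 18 in the selected and 35 in the shared peaks, and its part in them was not tested.

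**Figure D5:**
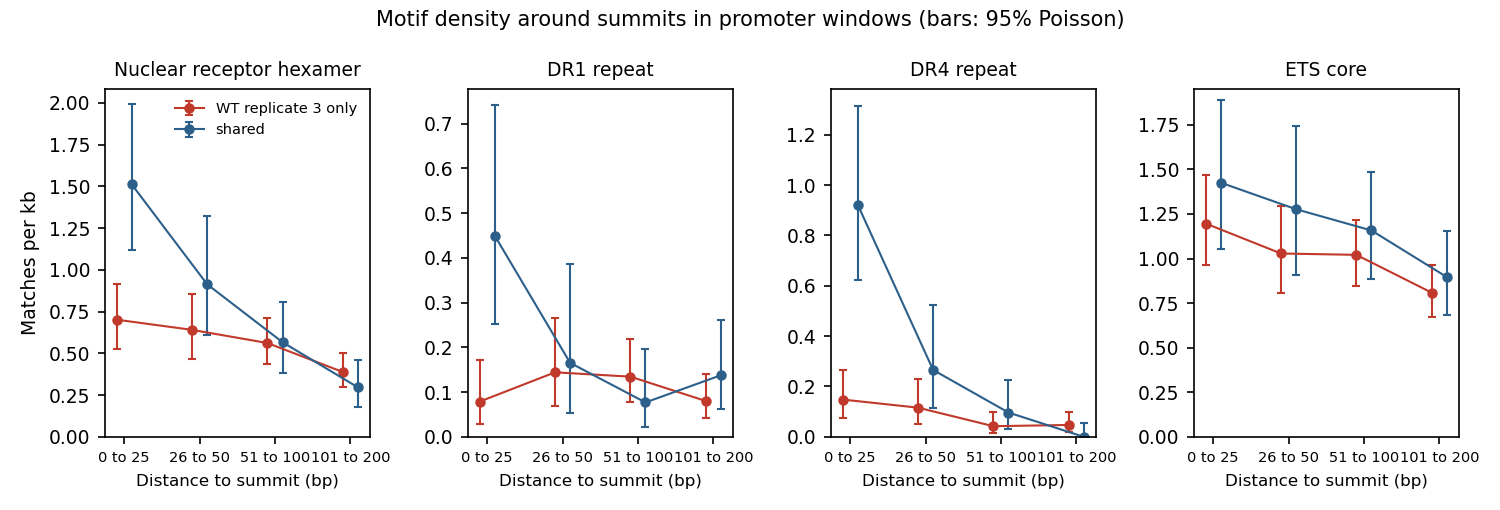
Matches per kb of sequence (y axis) by distance from the summit (x axis, bp) for the nuclear receptor hexamer, DR1, DR4 and the ETS core, in promoter windows with a selected summit (red, 1576 peaks) or a shared summit (blue, 688 peaks), with 95% Poisson bars. Within 25 bp of the summit the blue points lie above the red ones for the hexamer, DR1 and DR4, and the bars overlap for the ETS core.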

How the data were processed

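RXR ChIP-seq peaks of 2 WT and 2 edKO newborn mouse hearts were used, 1 deposited list per heart, called from its immunoprecipitate and its input. Per the submitters' processing notes, the authors used cutadapt, BWA, SAMtools and MACS3 on mm10 (GRCm38); versions and settings: not given in the sources used here. Each deposited list holds, from the authors, a −log10 p, a −log10 q and a fold enrichment, which is a ratio to local background, and each peak's position and summit. The authors' values exist only for called peaks, so WT replicate 4 has no value at a WT replicate 3 only peak. The read depth of the libraries was not used.

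Overlap was at least 1 bp. Summits were set against both ends of 21887 protein-coding genes in RefSeq GRCm38.p6, and strand came from the promoter table. Fragments at the summit were solved from the fold enrichment (pseudocount 1) and the −log10 p as whole numbers within 0.02. Direct repeats allowed 2 mismatches over 12 positions. A peak was named by the gene with the nearest end, or, in a gene list, by the list's gene within 1 kb. Named were the 10 highest peaks, up to 3 highest genes per list, peaks also found in edKO hearts, those next to the limits, and 5 at the middle rank; further genes of a list were named after their values had been seen. The members and gene lists were chosen with earlier results of these data known. Alternatives were other distances, a −log10 p of 10, other overlap rules, a left-out heart and the nearest gene only. Splits by fold enrichment and by CpG content were added after the values had been seen. The calculations used Python 3.11.15, numpy 2.4.6, pandas 2.3.3 and scipy 1.17.1, and were tested on simulated peaks and sequences.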

Additional observations from a re-analysis of the deposited data

How the results depend on the processing

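The number of selected peaks fell from 4344 to 2013 at a −log10 p of 10 or more, and lay between 3513 and 5972 under the other 5 settings tried, the highest without WT replicate 4. The share nearest to a start moved to 96.1% with a limit of 500 bp and to 90.5% with 2000 bp. The share of all genes with such a peak moved from 20.1% to 16.8% (500 bp), 23.3% (2000 bp), 10.1% (−log10 p of 10 or more), 19.2% (a WT replicate 4 peak within 500 bp counted as shared), 17.7% (nearest gene only) and 27.1% without WT replicate 4. With hearts left out, the overlap with edKO peaks ranged from 0% without edKO replicate 4 to 0.904% without WT replicate 4, where all gene-end peaks of WT replicate 3 enter. The CpG ratio kept its value within the interval in every setting. Of the 15 lists with their interval above the share of all genes, 10 kept it at a −log10 p of 10 or more, where Mediator and RNA polymerase II, autophagy, cyclins, the cytosolic ribosome and Zfp genes lost it. With the nearest gene only 13 kept it (Mediator and the cytosolic ribosome lost it), and 14 kept it with 500 bp to a gene end or to a WT replicate 4 peak (Mediator lost it). All 15 kept it in the other settings, with 1 list more at 2000 bp and 3 more without WT replicate 4. Without WT replicate 3 none of the peaks exist. No paired analysis was possible because the peaks come from 1 heart and no test was made. Peaks at 11 to 23 fragments, as most of these are, limit what absence from a smaller list can show.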

Other observations

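On the autosomes the share of genes with a WT replicate 3 only peak at an end ranged from 15.8% (14.3 to 17.5) on chromosome 7 to 24.4% (21.8 to 27.1) on chromosome 8. The X chromosome had 38 of 966 genes, 3.93% (2.80 to 5.36), and the Y chromosome had 0 of 256, with an interval that reaches 1.43%. Shared peaks were also sparse on the X, at 1.66% of its genes. Tbl1x, at a fold enrichment of 10.0, and Med14, a Mediator subunit gene, at 6.03 were named X-linked genes with such a peak.

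The reverse set was small. Of the 4697 peaks of WT replicate 4, 263 had no overlapping peak in WT replicate 3. At gene ends lay 67 of these (25.5%, 20.3 to 31.2), against 1660 (37.4%) of the WT replicate 4 peaks with an overlapping peak. The fold enrichment of the 67 in WT replicate 4 had a median of 4.84 and ranged from 3.49 to 8.75, with Slc10a6 and Pptc7 the highest at 8.75 and 7.59. Of the 58 with a known strand, 55 were nearest to a start.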
